A study of Capra hircus with 12 samples.

Results

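Small RNA of embryonic goat skin was compared between embryonic day 45 (E45) and embryonic day 55 (E55), in 1 sequencing library for each stage. The animals were embryos of the Inner Mongolia cashmere goat (Capra hircus), whose secondary hair follicles yield the cashmere fibre, and the skin came from the mid-flank. Each library was made from 1 RNA pool, in which the skin of 3 embryos of the same age had been combined, so that both groups share breed, body site and pooling and differ by age. No treatment or genotype was recorded. The series holds 12 samples, of which 9 are mRNA libraries of single embryos and 3 are small RNA pools, and the study asked what changes in skin as hair follicles are laid down. The E65 pool is given here only as a further value. All 649 rows of the deposited miRNA table were compared, with rows of identical sequence counted once, which left 586 distinct sequences. Of these, 150 carried a miRNA name in the table and 436 did not. With 1 pool per stage there was no replicate and no test between stages, and every ratio below describes these libraries. The labels name 2 sequencing instruments for the series without assigning them to libraries, so that instrument and stage cannot be told apart.

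A miRNA is a short RNA cut by Drosha and Dicer from an RNA hairpin and loaded into an Argonaute protein, which it guides to partly matching sites in mRNAs. The mRNA is then translated less or degraded. Most of the pairing rests on the seed, bases 2 to 8 of the miRNA, and miRNAs with the same seed form a family with overlapping targets. In skin, loss of Dicer or of the miRNA machinery is known to disturb hair follicle growth, and epithelium and mesenchyme are known to carry different miRNAs.

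The sequences on which the comparison turned are printed here as the table gives them, 5′ to 3′ and with T for U, and the capitals mark the seed. A sequence without a name is called by its seed. The first set shows the 9 sequences that were 8-fold or more lower in the E55 pool than in the E45 pool, none of which carried a name.

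CTTTGGT-seed sequence: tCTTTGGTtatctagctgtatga
AAGGCAC-seed sequence: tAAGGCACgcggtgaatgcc
ATGGCTT-seed sequence A: tATGGCTTtttattcctatgtga
ATGGCTT-seed sequence B: tATGGCTTttcattcctatgtga
TCCTATG-seed sequence: tTCCTATGcatatacttcttt
ATTGCTT-seed sequence: tATTGCTTaagaatacgcgtag
TGCATAG-seed sequence: tTGCATAGtcacaaaagtgatc
GAATTGT-seed sequence: aGAATTGTggctggacatctgt
CTCAAAC-seed sequence: aCTCAAACtgtgggggcactt

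The second set holds the 5 sequences with the seed AAAGTGC, the seed of miR-17-5p, that reached 20 RPM in either pool, which were all at least 2-fold lower in the E55 pool as deposited (3 of the 5 with the median ratio set to 0).

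miR-17-5p: cAAAGTGCttacagtgcaggta
miR-106b: tAAAGTGCtgacagtgcagat
AAAGTGC-seed sequence A: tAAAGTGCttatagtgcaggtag
AAAGTGC-seed sequence B: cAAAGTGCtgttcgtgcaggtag
AAAGTGC-seed sequence C: cAAAGTGCtcacagtgcaggtag

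The third set holds 3 unnamed sequences of high level that were lower in the E55 pool than in both other pools.

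TTGGCAC-seed sequence: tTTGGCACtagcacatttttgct
ATGGCAC-seed sequence: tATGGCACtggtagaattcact
TTGGCAA-seed sequence: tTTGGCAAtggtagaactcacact

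The fourth set holds the sequences of more than 1000 RPM at E55 (RPM, reads per 1000000 reads of the library) that were at least 2-fold higher in the E55 pool, followed by miR-381-3p, which had the largest increase.

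GGAATGT-seed sequence A: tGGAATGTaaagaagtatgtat
CCTTCAT-seed sequence: tCCTTCATtccaccggagtctgt
CTGGACT-seed sequence: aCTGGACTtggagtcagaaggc
TAAGACT-seed sequence: tTAAGACTtgcagtgatgttt
miR-655-3p: aTAATACAtggttaacctctct
miR-133: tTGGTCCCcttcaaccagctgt
let-7f: tGAGGTAGtagattgtatagt
miR-381-3p: aTATACAAgggcaagctctct

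The RPM values, which the authors named TPM, were used as deposited, and each column covers all reads assigned to the listed rows. The low values were whole multiples of what 1 read is worth in all cases (100% within a tolerance of 0.1 read), which gave 2455506 reads for the E45 pool, 4125577 for the E55 pool and 2344807 for the E65 pool. In these totals the reads of a sequence listed on several rows count once per row, and such repeats made up 4.65%, 3.95% and 2.29% of the 3 columns. A single read was thus worth 0.407 RPM at E45 and 0.242 RPM at E55, and the E55 library was the deeper. More than 3 reads were found for 506 sequences at E45, 522 at E55 and 453 at E65. Intervals below are exact 95% intervals for counting error only. They hold no difference between embryos or library preparations, and PCR copies of a read are not separate molecules. Adapter ligation also favours some small RNAs over others, so that the RPM of different sequences are shares of a library and not molar amounts. In a bulk pool, fewer cells of a type and less of a miRNA per cell cannot be told apart.

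The 4 most abundant small RNAs had the same ranks in both pools. The unnamed ACCCGTA-seed sequence, which shares its seed with miR-99a, was first in both pools, with 155265 RPM at E45, 121797 RPM at E55 and 135432 RPM at E65. It held 15.5% of the E45 library and 12.2% of the E55 library. miR-143, a miRNA of fibroblasts and smooth muscle, was second with 67984 RPM at E45, 83128 RPM at E55 and 95670 RPM at E65. miR-411a-5p of the imprinted DLK1-DIO3 locus was next, with 46673 RPM at E45, 82954 RPM at E55 and 48707 RPM at E65. It alone of these 3 differed by more than 1.5-fold between E45 and E55. Of the others among the 10 with the highest mean, miR-26a and miR-21 had log2 ratios of 0.03 and 0.10, miR-148a of 0.33 and let-7i of 0.72. An unnamed sequence with the seed of miR-30 (GTAAACA), miR-199a-3p and miR-374a were lower at E55, with log2 ratios of −0.37, −0.53 and −0.64. The 10 highest sequences of each library held 47.7% of E45, 48.6% of E55 and 53.7% of E65. Sequences with a miRNA name held 52.3% at E45, 59.9% at E55 and 59.98% at E65.

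Single sequences were described where they had at least 20 RPM in either pool, and the ratio was log2 of (E55 RPM + 1) over (E45 RPM + 1), a scale that understates changes of low values. This left 321 sequences, 116 of them with a name, that held 95.2% of the E45 and 95.95% of the E55 library. Ranked by the value in the higher pool, the highest sequence left out had 19.55 RPM and the lowest included had 20.36 RPM, both at E45. The other 265 sequences were below it, 2 of them at 0 in both pools.

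Lower values at E55 were more frequent than higher ones. Of the 321 sequences, 212 were lower and 109 higher at E55, and the median log2 ratio was −0.31, with quartiles of −0.77 and 0.19. At least 2-fold higher at E55 were 12 sequences (3.74%), and at least 2-fold lower were 64 (19.9%). When the median ratio was set to 0 these numbers became 28 and 39, so the excess of decreases depends on the scaling of the libraries. The ratio's counting interval left out 1-fold for 268 of the 321 sequences, since at this depth counting error was small for all but the rarest. Named sequences had a median of 0.12, with 69 higher and 47 lower, and 6 up and 8 down by 2-fold. Unnamed sequences had a median of −0.54, with 40 higher and 165 lower, and 6 up and 56 down by 2-fold. With the median ratio set to 0, named sequences had 17 up and 3 down by 2-fold (88 higher and 27 lower), and unnamed ones 11 up and 36 down. By level, the median was −0.42 for the 99 sequences whose higher value lay from 20 up to 100 RPM and 0.10 for the 25 that reached 10000 RPM or more. None of those 25 was 2-fold lower, and 1 was 2-fold higher (5 with the median ratio set to 0).

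**Figure D1:**
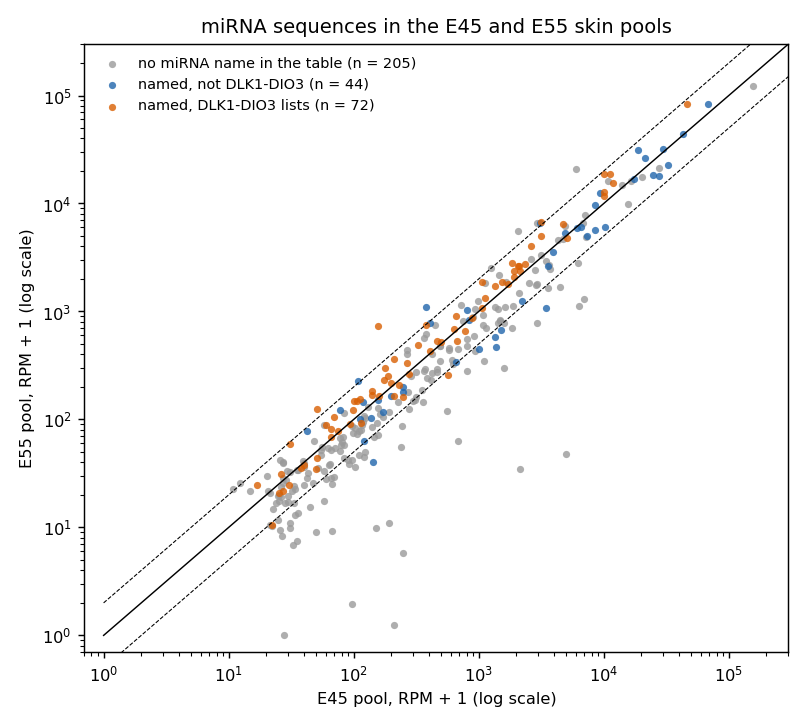
RPM + 1 of each of the 321 sequences in the E45 pool (horizontal, log scale) and the E55 pool (vertical, log scale), with the solid line at equal values and dashed lines at 2-fold. Named DLK1-DIO3 sequences (72, orange) lie mostly above the solid line, and the unnamed sequences (grey) mostly below it, with a few far below.

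The steepest changes were decreases of unnamed sequences. All 9 sequences that were at least 8-fold lower at E55 on the scale of RPM + 1 lacked a name, and no sequence was 8-fold higher. Together they had 8749 RPM at E45 (21482 reads), 167 RPM at E55 (688 reads) and 162 RPM at E65, that is 0.875%, 0.0167% and 0.0162% of the libraries. The decrease from E45 to E55 was thus not made up at E65, where 6 of the 9 were at or below their E55 value.

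The CTTTGGT-seed sequence made up most of this sum. It was listed on 4 rows of the table, with 4995 RPM at E45, 46.8 RPM at E55 and 22.2 RPM at E65. This was a 106.8-fold lower value at E55 (counting interval 92.6 to 123.7), from rank 38 of the library to rank 235. The AAGGCAC-seed sequence had 2144 RPM at E45, 33.5 RPM at E55 and 8.53 RPM at E65, a value 64.1-fold lower at E55 (54.1 to 76.5). Both were high at E45 alone.

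The pair of ATGGCTT-seed sequences shared its seed and was lower together. Sequence A had 688 RPM at E45, 61.6 RPM at E55 and 115 RPM at E65, 11.2-fold lower at E55. Sequence B had 248 RPM at E45, 4.85 RPM at E55 and 5.12 RPM at E65, 51.2-fold lower at E55 (32.9 to 84.5). Of these 2, sequence A was again higher at E65 than at E55, while sequence B stayed near its E55 value.

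The remaining 5 were of lower level. The TCCTATG-seed sequence had 211 RPM at E45 and a single read, 0.24 RPM, at E55, with 0.85 RPM at E65. Its ratio was 877-fold, with a counting interval of 155.2 to 34374 that shows how little 1 read fixes. The ATTGCTT-seed sequence had 191 RPM at E45, 9.94 RPM at E55 and 4.69 RPM at E65. The TGCATAG-seed sequence had 149 RPM at E45, 8.97 RPM at E55 and 5.54 RPM at E65. These 2 were 19.2-fold and 16.6-fold lower at E55 and lower again at E65. The GAATTGT-seed sequence had 96.5 RPM at E45, 0.97 RPM (4 reads) at E55 and 0 at E65. The CTCAAAC-seed sequence had 26.9 RPM at E45 and no read at E55 or E65. Its exact counting interval, which also covers the error of the 66 reads at E45, began at 29.2-fold lower at E55. With 3 reads put in place of the count of 0, and no error allowed for the E45 reads, the fold was 37.0. Only the TCCTATG-seed and CTCAAAC-seed sequences had 20 RPM or more in 1 of the 2 pools and at most 3 reads in the other. No sequence was near absent at E45 and present at E55.

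**Figure D2:**
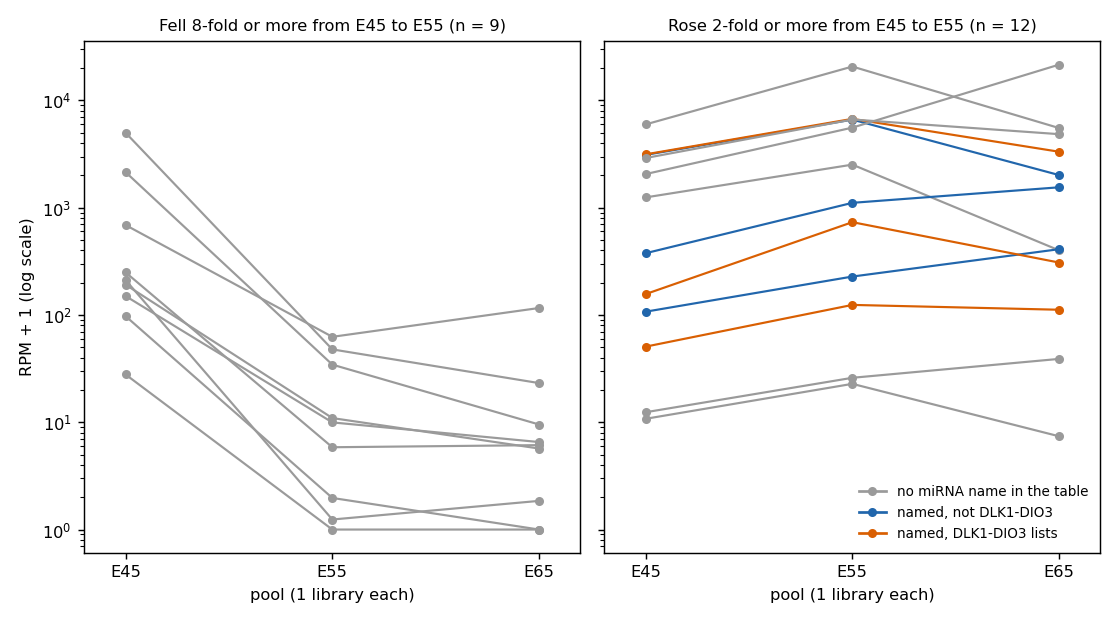
RPM + 1 (log scale) in the E45, E55 and E65 pools, 1 line per sequence, for the 9 sequences at least 8-fold lower at E55 (left) and the 12 at least 2-fold higher (right). The left lines drop between E45 and E55 and stay below their E45 value at E65, while 8 of the 12 right lines come down again at E65.

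Another 9 sequences were 4-fold to 8-fold lower, again without names, against 1 sequence (miR-381-3p) that was at least 4-fold higher. Among them were the TTGGCAC-seed and ATGGCAC-seed sequences, to which the TTGGCAA-seed sequence was close in course but lower in level. The TTGGCAC-seed sequence had 6384 RPM at E45, 1115 RPM at E55 and 5657 RPM at E65 (log2 ratio −2.52 from E45 to E55). The ATGGCAC-seed sequence had 6938 RPM at E45, 1308 RPM at E55 and 3471 RPM at E65 (−2.41). The TTGGCAA-seed sequence had 2922 RPM at E45, 786 RPM at E55 and 2355 RPM at E65 (−1.89). All 3 were low in the E55 pool alone, a course unlike that of the 9 steepest decreases. The AGGTAGT seed was shared by 2 sequences that were lower together, from 1590 to 297 RPM and from 555 to 118 RPM, with 169 and 121 RPM at E65. Of the 64 sequences that were 2-fold lower at E55, 32 were lower still at E65 and 31 were above their E55 value.

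Only 8 named miRNAs were 2-fold lower at E55. miR-17-5p, a member of the miR-17-92 cluster that promotes cell proliferation, had 140.5 RPM at E45, 39.5 RPM at E55 and 60.6 RPM at E65 (log2 ratio −1.80). miR-218a, which is processed from introns of the SLIT genes, had 3425 RPM at E45, 1072 RPM at E55 and 1340 RPM at E65, 3.19-fold lower at E55 (3.08 to 3.31). miR-106b, a paralogue of miR-17 within the MCM7 gene, had 1375 RPM at E45, 463 RPM at E55 and 734 RPM at E65 (−1.57). These 3 were lowest in the E55 pool. miR-374b had a ratio of −1.21 and miR-194, known from liver and gut epithelium, of −1.18. miR-103 and its near copy miR-107, both from introns of the PANK genes, had −1.15 and −0.97. Their sequences are nearly identical, so that reads with a trimmed end may be assigned to either. miR-1197-3p and miR-433-5p of the DLK1-DIO3 locus had −1.14 and −1.09, and miR-29a, which targets collagen mRNAs, had −0.92, with 119 RPM at E45, 62.5 RPM at E55 and 46.9 RPM at E65.

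Of the 12 sequences that were at least 2-fold higher at E55, 6 carried a name. miR-381-3p had 156 RPM at E45, 732 RPM at E55 and 307 RPM at E65, the only increase above 4-fold (4.71-fold, 4.23 to 5.25). let-7f had 375 RPM at E45, 1109 RPM at E55 and 1548 RPM at E65 (2.95-fold, 2.75 to 3.17). miR-133, which is known from skeletal and heart muscle, had 3106 RPM at E45, 6623 RPM at E55 and 2013 RPM at E65 (2.13-fold). miR-133 was thus highest at E55, and let-7f at E65. The others with a name were miR-377-3p (log2 ratio 1.29), miR-655-3p (1.10) and let-7b (1.09). miR-543-3p, let-7g, miR-3956-5p and miR-127 came next, with 0.98, 0.96, 0.95 and 0.92.

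Among the unnamed sequences at least 2-fold higher at E55, GGAATGT-seed sequence A had the highest level. It was listed on 2 rows, with 5973 RPM at E45, 20686 RPM at E55 and 5524 RPM at E65, 3.46-fold higher at E55 (3.40 to 3.53), and came from rank 36 to rank 10. A second sequence of this seed had 10726 RPM at E45, 16161 RPM at E55 and 3500 RPM at E65 (log2 ratio 0.59). Both were highest in the E55 pool, as was miR-133. The CCTTCAT-seed sequence had 2057 RPM at E45, 5576 RPM at E55 and 21553 RPM at E65 (1.44), and increased at each step. The CTGGACT-seed sequence had 2903 RPM at E45, 6641 RPM at E55 and 4845 RPM at E65 (1.19), and a row that held only its first 18 bases had a like ratio (1.07) at a level of 11.4 and 24.97 RPM. The TAAGACT-seed sequence had 1246 RPM at E45, 2519 RPM at E55 and 399 RPM at E65 (1.01). The AACCCAA-seed sequence was near the lower limit, with 9.77 RPM at E45, 21.8 RPM at E55 and 6.40 RPM at E65. Of the 12, 8 were lower at E65 than at E55.

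The let-7 family, which restrains growth-promoting genes such as LIN28 and HMGA2 and becomes abundant as embryonic tissues differentiate, was mostly higher at E55. Of 12 members on the list 7 were named in the table and 6 reached 20 RPM, of which 5 were higher and 1 lower, with a median of 0.84 against −0.31 for all sequences. let-7i, the most abundant, had 18886 RPM at E45, 31123 RPM at E55 and 28325 RPM at E65. let-7a had 9276 RPM at E45, 12624 RPM at E55 and 15502 RPM at E65. let-7c was the exception, with 3560 RPM at E45, 2659 RPM at E55 and 3311 RPM at E65 (−0.42). let-7f, let-7g and let-7b were lower in level and had the larger ratios (1.56, 0.96 and 1.09). The family held 3.26% of the E45, 4.85% of the E55 and 5.03% of the E65 library. Its members differ by a few bases, and reads with an error or a trimmed end may be counted for another member. Of 2 unnamed sequences with the let-7 seed GAGGTAG, 1 was higher (1124 to 1832 RPM) and 1 lower (1870 to 1117 RPM) at E55.

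The miR-17-92 cluster and its paralogues are known from proliferating cells. The table named 5 of 14 listed members, and the 4 that reached 20 RPM were lower at E55, with a median of −1.06, where 66.0% of all sequences were lower. miR-19b, the most abundant, had 7282 RPM at E45, 4965 RPM at E55 and 11900 RPM at E65 (−0.55), and miR-25 had 137.2, 103 and 94.3 RPM (−0.42). Summed over the 5 named members alone, the level was 8948 RPM at E45, 5572 RPM at E55 and 12792 RPM at E65, a total carried by miR-19b. Unnamed sequences that share a seed with these members are not in this total. The larger ratios came from the miRNAs with the seed AAAGTGC (miR-17-5p and miR-106b). The 3 unnamed sequences of the same seed were lower as well. Sequence A had 6220 RPM at E45, 2830 RPM at E55 and 3743 RPM at E65. Sequence B had 3600, 1635 and 1897 RPM, and sequence C had 1859, 700.0 and 767 RPM, in the same order. All 5 sequences of this seed that reached 20 RPM were thus at least 2-fold lower, where 19.9% of all and 27.3% of the unnamed sequences were, and with the median ratio set to 0 all 5 remained lower and 3 by 2-fold. Their sum went from 13195 to 5667 RPM, with 7202 RPM at E65. The sixth, miR-106a, was below the limit, with 13.0 RPM at E45, 1.45 RPM at E55 and 2.13 RPM at E65.

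The DLK1-DIO3 locus is an imprinted region whose miRNAs are made from the maternal allele and are abundant in embryo and placenta. Its miRNAs made up the largest named group. Of the sequences named for the miR-379/miR-410 cluster or for the RTL1 region beside it, 72 of 100 reached 20 RPM, and 53 of them were higher and 19 lower at E55. Their median was 0.27, against −0.15 for the 44 other named sequences, of which 16 were higher and 28 lower. The locus held 15.1% of the E45, 22.7% of the E55 and 13.8% of the E65 library, a share that was highest at E55. The muscle miRNA miR-133, the only named member of 6 on the muscle list, took the same course (3106, 6623 and 2013 RPM), as did GGAATGT-seed sequence A, and the part of muscle in the result was not tested. The largest single addition to this share was that of miR-411a-5p. The miR-379/miR-410 cluster had 42 of 60 higher (median 0.26) and the RTL1 region 11 of 12 (median 0.33). miR-127, which lies antisense to RTL1, had 9994 RPM at E45, 18872 RPM at E55 and 10632 RPM at E65. miR-409-5p had 11221 RPM at E45, 18775 RPM at E55 and 13446 RPM at E65, and miR-369-3p had 11873, 15339 and 9385 RPM. The 2-fold limit was passed upward by 3 sequences (miR-381-3p, miR-377-3p and miR-655-3p) and downward by 2 (miR-1197-3p and miR-433-5p), that is 4.17% and 2.78% of the 72, against 3.74% and 19.9% of all sequences. With the median ratio set to 0 it was passed by 11 upward and 0 downward (15.3% upward, against 8.72% of all sequences), 64 of the 72 were higher, and the 44 other named sequences had a median of 0.16 with 24 higher and 20 lower.

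By symbol, 61 of the 72 sequences could be matched to 44 miRNA genes of the RefSeq annotation of goat (ARS1.2), all on chromosome 21. The order of these genes was used and not their positions, since the build behind the table is not given in the sources used here. From MIR493 to MIR411A no sequence but miR-433-5p was lower, and a stretch from MIR380 to MIR758 had only lower values (miR-380-3p −0.09, both arms of miR-411b, miR-1197-3p, miR-323a-3p −0.61 and miR-758-3p −0.19). With the median ratio set to 0, 3 of these 6 were higher, and the counting intervals of miR-411b-3p and miR-758-3p included equal values. Genes next to each other could differ, as miR-381-3p (2.23) did from miR-1185-3p (0.14) and miR-487b-3p (0.33).

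**Figure D3:**
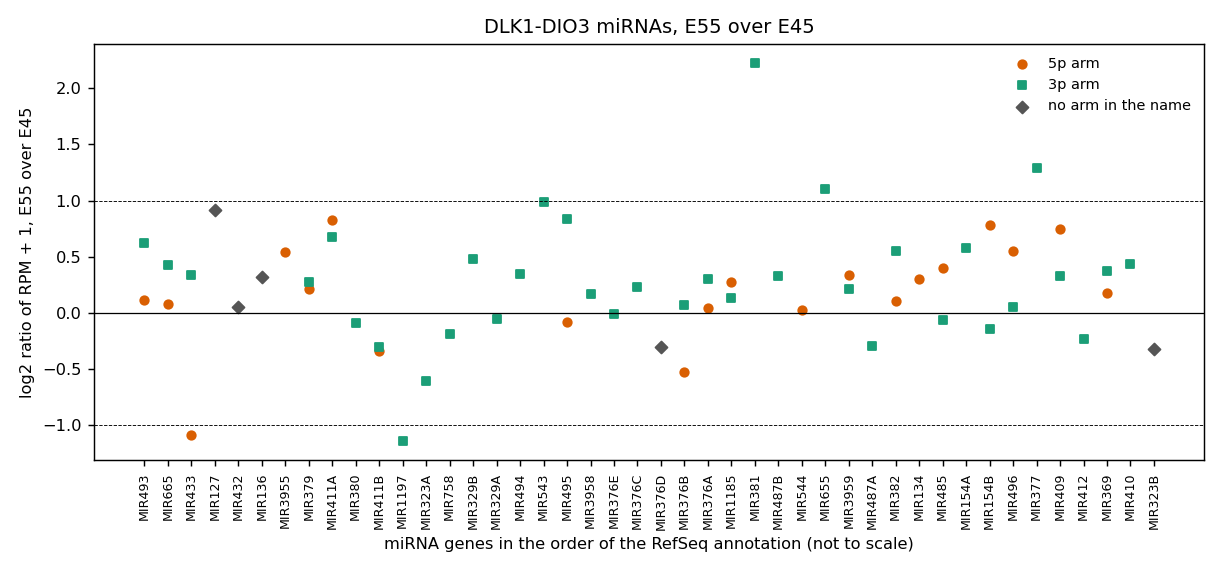
Log2 ratio of RPM + 1, E55 over E45 (vertical), of 61 sequences of the DLK1-DIO3 locus by miRNA gene in the order of the RefSeq annotation (horizontal, not to scale), with the arm of the hairpin given by colour and shape and dashed lines at 2-fold. Most points lie above 0, with miR-381-3p highest at 2.23 and miR-1197-3p lowest at −1.14.

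Both arms of a hairpin are cut from the same precursor, and 21 hairpins had both arms above the limit, all but miR-30a from DLK1-DIO3. In 15 pairs the arms had the same sign (13 both higher, 2 both lower) and in 6 the opposite one. The arms differed by a median of 0.35 on the log2 scale, and by 0.5 or less in 16 pairs. The 5p arm of miR-411a had 0.83 and its 3p arm 0.68. The widest gap was that of miR-433, whose 5p arm went from 21.2 to 9.45 RPM while its 3p arm went from 264 to 334 RPM.

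The next list held miR-10, which lies in the HOX clusters, its relatives miR-99 and miR-100, and miR-125, which is of another family. The table named 4 of the 7 listed members, miR-10a, miR-10b, miR-99a and miR-125b, and these were lower at E55, with a median of −0.68, where 66.0% of all sequences were lower. miR-10b had 10310 RPM at E45, 6049 RPM at E55 and 11283 RPM at E65, and miR-10a had 2220, 1243 and 3057 RPM. miR-125b had 8571 RPM at E45, 5678 RPM at E55 and 5230 RPM at E65. miR-10a and miR-10b were lowest at E55, and miR-125b at E65. miR-99a was close to level (−0.13). The unnamed ACCCGTA-seed sequence, which shares the seed of miR-99a, was not counted in this list. It was far more abundant, with 155265 RPM at E45 and 121797 RPM at E55 (−0.35).

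Epithelial miRNAs were few by name. Of 11 on the list, 3 were named and 2 reached 20 RPM. miR-200b, which with its relatives keeps epithelial cells from mesenchymal transition by repressing ZEB1 and ZEB2, had 76.6 RPM at E45, 121 RPM at E55 and 451 RPM at E65 (1.58-fold at E55, 1.33 to 1.88). miR-200c had 41.5 RPM at E45, 77.6 RPM at E55 and 307 RPM at E65 (1.87-fold, 1.49 to 2.36). An unnamed sequence of the same seed, AATACTG, had 46.8 RPM at E45, 62.8 RPM at E55 and 144.6 RPM at E65. All 3 were higher at each later stage, with the larger step after E55. Listed epithelial miRNAs without a name in the table may be among the unnamed sequences, those lowest in the E55 pool included. These 3 thus do not give the course of the whole list. miR-200a was at 1 read at E45 and 2 reads at E55, too few for a comparison.

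Dermal and mesenchymal miRNAs moved in both directions. Of 15 listed, 8 were named and 7 reached 20 RPM, of which 4 were higher and 3 lower, with a median of 0.10. They held 14.3% of the E45, 14.9% of the E55 and 18.5% of the E65 library, with miR-143 the most abundant. miR-152 and miR-22-3p were a little higher (0.19 and 0.29), miR-21 was level (0.10), and miR-199a-3p, miR-29a and miR-218a were lower. The sign of this median depends on which members are counted: it was −0.11 with no limit on low values, and −0.22 with sequences of the same seed added.

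For other cells that skin may hold, few miRNAs were named. The muscle list had miR-133 alone of 6 (3106, 6623 and 2013 RPM), the liver list miR-194 alone of 3, and the endothelial list miR-221 alone of 3 (112 RPM at E45, 100.1 RPM at E55 and 313 RPM at E65). Of 8 blood cell miRNAs only miR-150 was named, at 6.11, 8.24 and 13.7 RPM, and of 8 neural miRNAs none. As 436 of the 586 sequences carry no name, other members of these lists may be among them, the steepest decreases and the unnamed increases included, and the part of such cells in the results was not tested.

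Among the remaining families the changes were small or downward. All 5 sequences named for miR-30 were lower, with a median of −0.27, close to the −0.31 of all sequences, of which 66.0% were lower. miR-30a-5p had 17505 RPM at E45, 16948 RPM at E55 and 17007 RPM at E65. miR-148a, which targets DNMT1 mRNA, had 21200 RPM at E45, 26625 RPM at E55 and 36720 RPM at E65. miR-26a and miR-26b had ratios of 0.03 and −0.01. miR-181a, known from lymphocytes and muscle, had 24808 RPM at E45, 18192 RPM at E55 and 27113 RPM at E65, and miR-23a and miR-27a differed by 0.12 or less. Ratios between −0.31 and 0 turn positive when the median ratio is set to 0, which applies, among others, to miR-99a, miR-221, miR-23a, miR-27a, miR-26b and the median of the miR-30 list, but not to let-7c or to miR-17-5p, miR-106b, miR-19b and miR-25.

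Shared seeds gave a grouping that needs no names. The 321 sequences had 258 distinct seeds, and 12 seeds were carried by at least 3 of them, 49 sequences in all. Of the 38 seeds carried by at least 2, 25 had only lower members, 5 only higher ones and 8 both, where 66.0% of all sequences and 80.5% of the unnamed ones were lower. Beside AAAGTGC (median −1.41), the seeds ATTGCAC (3 sequences, −1.03), AAACCCG (3, −0.86), ACATTCA with miR-181a (3, −0.69), AGTGCAA (5, −0.66), AGCAGCA with miR-16b (4, −0.61) and GTAAACA with miR-30 (6, −0.34) had only lower members. Only higher members were found for AATACTG with miR-200b and miR-200c (3, 0.65). The let-7 seed GAGGTAG had 6 higher and 2 lower (8, 0.71), and the seeds of miR-376 (TCATAGA, 0.07), of miR-148a and miR-152 (CAGTGCA, 0.19) and of miR-154 (ATCATAC, 0.46) each had 2 higher and 1 lower. Of the unnamed sequences, 18 shared a seed with a named one. The sequences of a group can share reads where they differ by a base, and they are not independent.

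**Figure D4:**
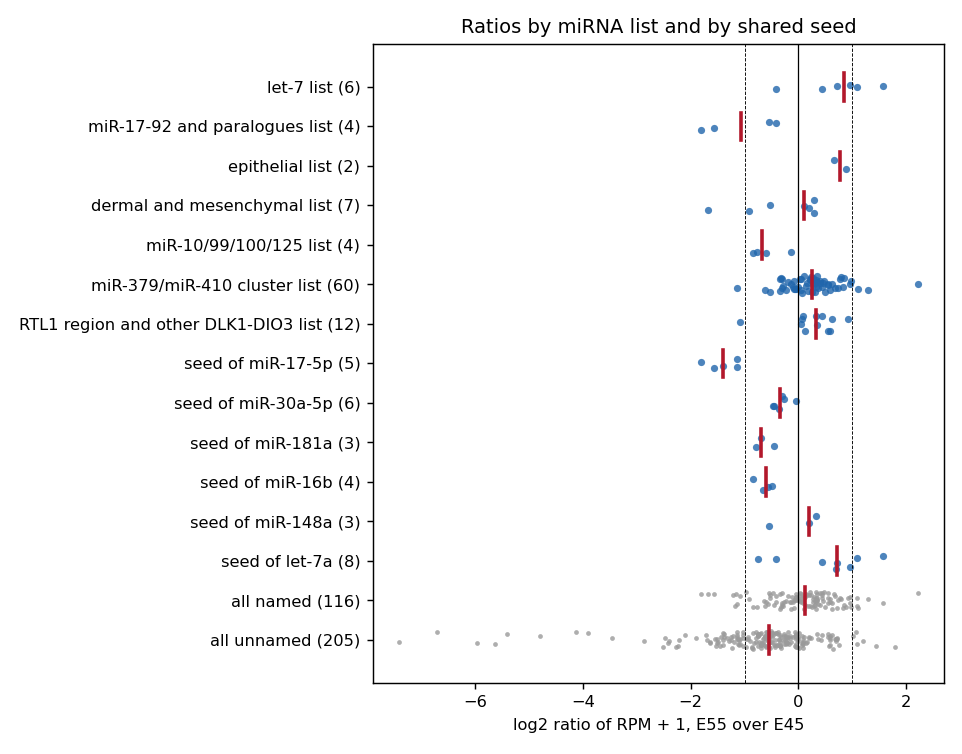
Log2 ratio of RPM + 1, E55 over E45 (horizontal), 1 point per sequence, by miRNA list, by shared seed and for all named and all unnamed sequences, with the number of sequences in brackets, the median as a red bar and dashed lines at 2-fold. The 5 sequences with the seed of miR-17-5p all lie left of −1, the let-7 list has its median at 0.84, and the unnamed sequences have theirs at −0.54.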

How the data were processed

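Skin of 3 embryos per stage was pooled before RNA extraction, and small RNA was size-selected and sequenced, per the labels. The authors listed 649 miRNA rows with their sequence and deposited values in RPM (named TPM), 1 column per pool. The submitters' processing notes name Bowtie. The version, genome build and prediction method are not given in the sources used here. The 9 columns of the RPKM table for single embryos were not used.

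Rows of identical sequence were counted once (47 sequences on 110 rows). Whole reads were recovered from the RPM steps. Log2 ratios used a pseudocount of 1 and sequences with at least 20 RPM in either pool. Intervals were exact conditional binomial (ratios), tested on simulated counts. With 1 library per stage, neither a count test nor a test between stages was made. miRNA lists were matched by the names in the table. Named in the text were the 10 most abundant sequences, the 10 largest ratios in each direction with a name and the 5 without, sequences at 3 reads or fewer in 1 pool, list members, and seed groups of at least 3. The remaining sequences at least 8-fold lower, the pair and the trio of decreased sequences and the other increases were chosen after their values were seen. So were the second GGAATGT-seed sequence, the stretch from MIR380 to MIR758 and the GGAGTGT-seed sequence. Members and lists were chosen with earlier results of these data known. Alternatives changed the pseudocount, scaling, filter, threshold and counting of rows. Python 3.11.15, numpy 2.4.6, pandas 2.3.3, scipy 1.17.1 and matplotlib 3.10.9 were used.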

Additional observations from a re-analysis of the deposited data

How the results depend on the processing

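Under another pseudocount or scaling, the medians of the let-7, miR-17-92, epithelial, dermal, miR-10 and miR-99, miR-379/miR-410 and RTL1 lists kept their sign, as did the 28 most abundant or most changed named miRNAs. The counts and medians that moved are given here. With the median ratio set to 0, 28 sequences were 2-fold higher and 39 lower, and the medians became 0 for all sequences, 1.15 for let-7, −0.75 for miR-17-92, 1.08 for the epithelial, 0.40 for the dermal, −0.38 for the miR-10 and miR-99, 0.56 for the miR-379/miR-410 and 0.63 for the RTL1 list. Scaled to the listed sum without the 10 most abundant, let-7 had 0.86 and the dermal list 0.11. Scaled without the DLK1-DIO3 lists, an alternative chosen after seeing the data, the medians were 0.97 for let-7, −0.93 for miR-17-92, 0.23 for the dermal, −0.55 for the miR-10 and miR-99 and 0.46 for the RTL1 list. With 20 RPM required in both pools 42 sequences were lower, and with 100 RPM in either 39. With no filter 28 were higher and 102 lower, and the medians were 0.96 for let-7, −1.57 for miR-17-92, −0.11 for the dermal and 0.38 for the RTL1 list. A 1.5-fold threshold gave 37 higher and 111 lower, and a 4-fold threshold 1 and 18. With members added by shared seed, also chosen after seeing the data, let-7 had 0.71, the dermal list −0.22 and the miR-10 and miR-99 list −0.59. The decreases of miR-103, miR-1197-3p, miR-194, miR-374b and miR-433-5p came under 2-fold in at least 1 setting, as did those of the 2 most abundant AAAGTGC-seed sequences with the median ratio set to 0. The cause of these shifts was not tested beyond the change of setting itself. Matching lists by file name alone was not run as a separate setting, since no other names were used. No paired analysis was possible because each stage had 1 pool and no test was made. Depth limits sequences of a few reads, where 3 reads correspond to 1.22 RPM at E45 and 0.727 RPM at E55.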

Other observations

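A motif shared by unnamed sequences stood out in the table. The letters GAACTTTT, searched on the strand given, occurred in 50 of the 586 sequences (8.53%), on 74 rows and in none with a miRNA name. Of these, 18 reached 20 RPM, of which 15 were lower and 3 higher at E55, with a median log2 ratio of −0.47, beside −0.54 for the other 187 unnamed sequences. Their sum was 1420 RPM at E45, 878 RPM at E55 and 992 RPM at E65. The motif was chosen after the sequences were seen. The 24 sequences that reached 20 RPM and were listed on more than 1 row had a median of −0.70, and 9 of them (37.5%) were 2-fold lower, against 19.9% of all and 27.3% of the unnamed sequences.

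The length of the small RNAs shifted slightly. Sequences of 22 bases held 37.0% of the E45, 42.5% of the E55 and 36.0% of the E65 library, and those of 21 bases held 37.2%, 33.8% and 36.2%. A first base of T, common in miRNAs loaded into Argonaute, held 56.0%, 56.4% and 61.4%. The GGAGTGT-seed sequence, which was 2.03-fold lower at E55 (1599 to 787 RPM), had 1.28 RPM (3 reads) in the E65 pool.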
